A study of Mus musculus with 14 samples.

Results

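Histone H3 lysine 4 (H3K4) methylation was examined at 10 genes of the primitive endoderm, of 21887 protein-coding genes in the gene table used. The genes are Gata4, Gata6, Sox7, Sox17, Pdgfra, Lama1, Col4a1, Hnf4a, Afp and Dab2. They were taken by name as genes of this lineage, with earlier results of these data known; no measured value enters the rule. Every peak that touched a gene or lay within 10 kb of either of its ends was assigned to it. The cells were blastocyst-derived mouse embryonic stem cells of strain C57BL/6J and genotype Mll1fl/fl; Cre-ER TM, so all groups, the untreated one included, carried floxed Mll1 alleles and the tamoxifen-activated recombinase Cre-ER. They were kept without feeder cells on Matrigel in medium with LIF and serum. One group was untreated, one received MM-401 at 100 µM and one received 4-hydroxytamoxifen (4-OHT) at 5 µM, both for 3 passages over 9 days. MM-401 is a peptidomimetic that blocks the contact between the H3K4 methyltransferase Mll1 and its partner WDR5, and 4-OHT activates Cre-ER, which recombines floxed alleles. Chromatin immunoprecipitation with sequencing (ChIP-seq) was done for H3K4me1, H3K4me2 and H3K4me3 in each group and for Mll1 in untreated cells. Neither the loss of Mll1 after 4-OHT nor an effect of 4-OHT apart from recombination was measured in the lists used here, and the promoter that drives Cre-ER and the number of clones are not given in the sources used here.

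The primitive endoderm is the epithelium that separates from the epiblast in the late blastocyst and later forms the visceral and parietal endoderm of the yolk sacs. FGF signalling favours this fate, GATA and SOX transcription factors carry it, and the cells lay down a basement membrane rich in laminin and type IV collagen. Embryonic stem cells correspond to the epiblast, in which these genes are largely silent; in such cells many developmental promoters are known to hold H3K4me3 together with the repressive mark H3K27me3. H3K4me3 marks promoters, H3K4me1 marks enhancers and promoter flanks, and H3K4me2 is found at both. A histone mark is not a level of expression, and no RNA was measured in the lists used here.

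The promoter sequences are shown because the members with a listed start differed in how much CpG those starts held and in whether a peak lay over them. RefSeq promoter windows (GRCm38.p6, 250 bases before to 50 bases after the transcription start) were listed for Pdgfra, Col4a1, Hnf4a, Afp and Dab2, 7 windows in all. No window was listed for Gata4, Gata6, Sox7, Sox17 and Lama1. Each sequence is given 5′ to 3′ on the strand of the gene, with every CpG in capitals. The Col4a1 window lies at chr8:11312777-11313076 on the minus strand, and the others lie on the plus strand. The Pdgfra window is at chr5:75152001-75152300, the Dab2 windows are at chr15:6299539-6299838 (upstream start) and chr15:6386498-6386797 (downstream start), the upstream Hnf4a window is at chr2:163506607-163506906 and the Afp window is at chr5:90490464-90490763.
Col4a1: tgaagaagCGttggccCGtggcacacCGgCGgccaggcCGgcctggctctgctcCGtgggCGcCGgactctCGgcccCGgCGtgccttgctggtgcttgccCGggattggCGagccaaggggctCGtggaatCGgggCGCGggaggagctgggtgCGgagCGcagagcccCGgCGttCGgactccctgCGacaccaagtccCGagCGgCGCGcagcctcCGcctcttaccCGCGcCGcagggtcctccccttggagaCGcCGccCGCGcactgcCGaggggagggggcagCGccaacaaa
Dab2 downstream start: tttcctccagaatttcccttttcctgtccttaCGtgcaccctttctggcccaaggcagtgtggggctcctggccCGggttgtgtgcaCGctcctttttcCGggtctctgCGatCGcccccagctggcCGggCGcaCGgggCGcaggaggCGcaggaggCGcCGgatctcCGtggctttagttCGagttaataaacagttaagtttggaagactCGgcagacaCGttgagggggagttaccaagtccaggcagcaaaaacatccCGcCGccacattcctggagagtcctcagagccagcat
Pdgfra: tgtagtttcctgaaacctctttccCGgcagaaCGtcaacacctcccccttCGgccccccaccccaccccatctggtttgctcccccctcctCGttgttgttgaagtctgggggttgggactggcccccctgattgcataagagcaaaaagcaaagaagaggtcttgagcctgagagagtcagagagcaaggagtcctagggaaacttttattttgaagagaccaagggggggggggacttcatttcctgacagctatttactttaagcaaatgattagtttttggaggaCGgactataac
Hnf4a upstream start: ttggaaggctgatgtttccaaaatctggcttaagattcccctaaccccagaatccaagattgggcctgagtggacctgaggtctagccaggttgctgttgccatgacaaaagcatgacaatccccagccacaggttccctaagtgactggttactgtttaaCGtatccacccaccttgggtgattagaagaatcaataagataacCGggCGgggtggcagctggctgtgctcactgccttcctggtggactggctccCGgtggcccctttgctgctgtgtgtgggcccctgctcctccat
Afp: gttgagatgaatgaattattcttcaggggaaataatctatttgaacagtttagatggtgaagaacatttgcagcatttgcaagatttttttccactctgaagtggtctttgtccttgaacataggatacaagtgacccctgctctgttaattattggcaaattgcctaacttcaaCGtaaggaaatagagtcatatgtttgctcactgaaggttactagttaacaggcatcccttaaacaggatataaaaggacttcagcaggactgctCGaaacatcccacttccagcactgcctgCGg
Dab2 upstream start: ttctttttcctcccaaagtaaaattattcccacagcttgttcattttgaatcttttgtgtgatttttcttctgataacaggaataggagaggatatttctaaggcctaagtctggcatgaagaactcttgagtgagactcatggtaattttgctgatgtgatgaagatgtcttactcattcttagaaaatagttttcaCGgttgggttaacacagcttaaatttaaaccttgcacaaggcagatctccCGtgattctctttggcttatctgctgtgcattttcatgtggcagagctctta
The Col4a1 window held 37 CpG and the downstream Dab2 window 19, against a median of 7 over the 32851 windows of the table. Both were covered by H3K4me3 in all 3 conditions. The Pdgfra window held 5 CpG. The untreated H3K4me3 peak spanned it, while the MM-401 peak began inside it and the 4-OHT list had a gap between 2 peaks there. The remaining windows held 2 to 4 CpG: 4 at each of the Hnf4a starts, 3 at Afp and 2 at the upstream Dab2 start. No H3K4me3 peak overlapped any of these 4 in any condition. The GATA motif searched, AGATAA, occurred on either strand in the upstream Hnf4a and upstream Dab2 windows, and in 11.2% of all windows. The SOX motif searched, ACAAT, occurred in the upstream Hnf4a window and in 31.0% of all windows. These matches are letters in a window and not measured sites.

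There was 1 library per mark and condition, so no difference below has a replicate check and no p-value is given. Values are the tags in peaks per 1000000 filtered tags of the library, called tags per M, and intervals are exact 95% Poisson or binomial intervals, which cover counting error only. The 10 libraries with peak lists held 12.9 to 61.8 M filtered tags (M, 1000000). Relative to the untreated library of the same mark, filtered tags after MM-401 came to 60.3% for H3K4me1, 49.5% for H3K4me2 and 51.2% for H3K4me3. After 4-OHT they came to 167%, 121% and 105%. The MM-401 libraries also had tags of 57 to 60 bp and estimated fragments of 208 to 293 bp, against 50 to 51 bp and 179 to 197 bp in the other mark libraries, and the file headers place them in another processing folder, so this difference and MM-401 cannot be told apart. A weak peak that is not listed may have fallen below the caller's threshold, and no list gives a value for it. H3K4me3 lay within 1 kb of an end of 7 of 8 embryonic stem cell markers (all but Esrrb), 4 of 5 trophectoderm markers (all but Elf5) and 3 of 4 fibroblast markers (all but Acta2) in all 3 conditions, so these marks do not by themselves separate the cell types.

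In untreated cells all 10 genes had peaks of all 3 marks. An H3K4me3 peak lay in the window of 17601 of the 21887 protein-coding genes, and the share with all 3 marks was not counted. Within 1 kb of a gene end, 7 of 10 members had H3K4me3, and Gata4, Hnf4a and Dab2 did not. Over all protein-coding genes, 15225 of 21887 had H3K4me3 within 1 kb of an end. Per kb of peak, untreated H3K4me3 was highest at Sox17 with 12.6 tags per M per kb (12.0 to 13.2) and Col4a1 with 11.3 (10.9 to 11.9). Gata6 at 8.52 (8.17 to 8.89), Dab2 at 8.02 (7.27 to 8.84) and Lama1 at 7.87 (7.49 to 8.26) followed with overlapping intervals. Gata4 at 7.25 (6.96 to 7.54) overlapped Lama1 narrowly, and Pdgfra at 6.08, Hnf4a at 5.85 and Sox7 at 5.70 overlapped one another. Afp was lowest at 2.56 (1.95 to 3.31), below the interval of every other member.

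**Figure D1:**
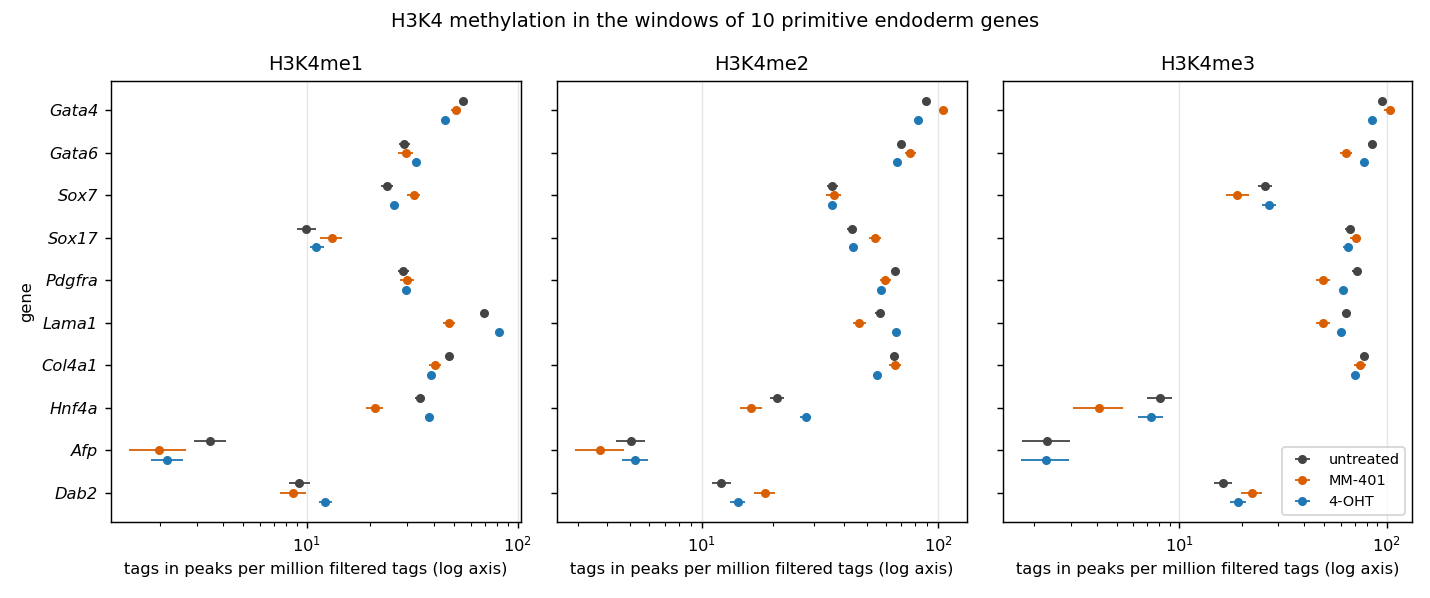
Tags per M in peaks of H3K4me1, H3K4me2 and H3K4me3 at each of the 10 genes (log axis), with 1 point per library for untreated, MM-401 and 4-OHT cells and exact 95% Poisson intervals. H3K4me3 ran from 95.2 at Gata4 to 2.30 at Afp in untreated cells, and Afp has no H3K4me3 point after MM-401 because no peak was listed.

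The first comparison asks how the marks stood after MM-401, and of the 3 marks H3K4me3 had the widest gap between the members' median log2 ratio of tags per M and that of all genes. Of the 9 members with an H3K4me3 peak in both libraries, 6 were lower and 3 higher after MM-401, with a median log2 ratio of -0.37, against 0.09 over 16841 genes, of which 39.0% were lower. Only Hnf4a was lower by 1.5-fold or more, a size reached by 7.93% of all genes, and no member was higher by that much (1.29% of all genes). The single H3K4me3 peak of Afp was missing from the MM-401 list, and 4.32% of genes with an untreated peak were left without one. The sign of the median depends on how peak width enters. Per kb of peak, an alternative chosen after the data were seen, the members' median was 0.11 with 6 of 9 higher, and that of all genes was 0.20. Most genes were thus higher per kb as well, and their exact share was not counted. On this per-kb scale the gap was wider for H3K4me1, with 0.39 for the members against 0.23 over all genes.

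Among the transcription factors, Gata6, which with Gata4 directs primitive endoderm fate, lies at chr18:11052510-11085636 (coordinates here and below are on GRCm38, mm10). Positions are given from a gene's lower end, the end with the lower coordinate, which need not be its start. The H3K4me3 of Gata6 stood at 85.0 tags per M in untreated cells, 63.4 after MM-401 and 77.2 after 4-OHT. The MM-401 value was lowest and its ratio to untreated was 0.747 (0.688 to 0.81). Most of it lay in a broad domain from -4.8 to 3.6 kb of the gene's lower end, where the level was 78.9, 60.9 and 73.2 in untreated, MM-401 and 4-OHT cells and the summed peak width was 8182, 8301 and 8344 bp. The summed width of the Gata6 domain was similar in all 3 lists, though the 4-OHT list split it into 2 peaks, and per kb the gene was also lower after MM-401 (log2 -0.39). A second site from 5.8 to 7.3 kb gave 5.34, 2.55 and 3.98.

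Sox7, an F-group SOX factor (chr14:63943706-63950732), had 1 H3K4me3 peak with 25.9 tags per M in untreated cells, 19.0 after MM-401 and 27.0 after 4-OHT. MM-401 stood below the other two, which were close to each other. Its peak spanned 4548, 2843 and 4362 bp, beginning at -3.408, -1.514 and -3.182 kb of the gene's lower end, so the outer part was not in the MM-401 peak, and per kb the level was higher after MM-401 (log2 0.23). Sox17, its close relative in the same lineage (chr1:4490928-4497426), gave 66.1, 70.6 and 64.6. The Sox17 values lay within a narrow range, and the ratio intervals of both treatments spanned 1. Its main site held 57.0, 63.6 and 55.5 tags per M, and the site from 5.1 to 7.2 kb held 9.14, 7.04 and 9.05.

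Gata4 (chr14:63198914-63271712) had 6 H3K4me3 peaks in each condition and none within 1 kb of a gene end. No start was listed for Gata4, so whether any of these peaks lay over its promoter cannot be told here. The Gata4 total was 95.2 in untreated cells, 103 after MM-401 and 85.0 after 4-OHT. The highest site inside the gene, from 44.8 to 48.2 kb of its lower end, gave 35.2, 39.5 and 28.5. The peak in the flank, at 17.1, 24.4 and 16.8, lies within 1 kb of an end of the neighbour Neil2. Without it the Gata4 values were 78.0, 78.3 and 68.1, so the MM-401 and untreated levels were then equal on the log2 scale (0.00).

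Pdgfra (chr5:75151322-75198206) encodes the PDGF receptor alpha, a surface marker of the early primitive endoderm. It had 5 H3K4me3 peaks in untreated cells, 1 after MM-401 and 5 after 4-OHT, with 71.4, 49.0 and 61.7 tags per M. The MM-401 value was the lowest and its ratio of 0.687 (0.627 to 0.753) was the second lowest of the 9 members. The main untreated peak ran from -1.8 to 6.145 kb with 63.7 tags per M. The MM-401 peak ran from 0.932 to 6.142 kb, beginning next to the listed start 929 bp from the gene's lower end. After 4-OHT the same stretch was listed as 2 peaks, a weak one from -1.851 to 0.771 kb with 6.21 tags per M and a strong one from 0.941 to 6.054 kb with 50.2. The strong 4-OHT peak and the MM-401 peak therefore had nearly the same place and level (50.2 and 49.0), and the lists differed in the weaker stretch before the start and in the small outlying peaks.

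The matrix genes differed in how many H3K4me3 peaks the MM-401 list held. Lama1 (chr17:67697127-67822645), which encodes the laminin alpha 1 chain of the embryonic basement membrane, had 5, 1 and 5 H3K4me3 peaks with 63.8, 49.3 and 60.3 tags per M in untreated, MM-401 and 4-OHT cells. The site across its lower end alone gave 54.6, 49.3 and 49.4, nearly equal in both treatments. The other 4 untreated peaks, at 0.871 to 4.20 tags per M, had no counterpart after MM-401. After 4-OHT the sites from 90.8 to 92.1 kb and from 93.8 to 95.3 kb were higher than in untreated cells, at 3.48 against 2.14 and at 2.35 against 0.871.

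Col4a1 (chr8:11198423-11312889), which encodes the alpha 1 chain of type IV collagen, kept 3 H3K4me3 peaks in every condition, with 77.5, 74.0 and 70.1 tags per M of H3K4me3. The CpG-rich promoter shown above, which it shares with the divergent Col4a2, carried 56.8, 61.0 and 54.0 of these. The site inside the gene from 79.9 to 81.9 kb carried 13.2, 6.42 and 9.20, lowest after MM-401. With the shared promoter peak left out, the gene's level was 20.7, 13.0 and 16.1, and MM-401 was then lower by 0.67 on the log2 scale.

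Hnf4a (chr2:163506811-163572907) encodes a nuclear receptor of the visceral endoderm and liver. No H3K4me3 peak lay over either of its listed starts in any condition. Its H3K4me3 came from a site from 27.7 to 29.1 kb, between the listed starts, with 8.07 tags per M in untreated cells, 4.10 after MM-401 and 6.17 after 4-OHT, to which 4-OHT added a flank peak of 1.10. The MM-401 ratio of 0.508 (0.368 to 0.69) was the lowest of the 9 members, and it was also lower per kb (log2 -0.83). The upstream start shown above was covered by H3K4me1 at 2.17, 2.07 and 1.59 tags per M and by H3K4me2 after 4-OHT only, at 0.967. Afp (chr5:90490714-90508907), the alpha-fetoprotein of yolk sac and fetal liver, had no peak of any mark over its start. Its H3K4me3 peak from 16.4 to 17.4 kb, near the far end of the gene, read 2.30 tags per M without treatment and 2.27 after 4-OHT.

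Dab2 (chr15:6299788-6440715), an endocytic adaptor that the endoderm needs for its epithelial order, had the highest H3K4me3 ratio of the members after MM-401. It gave 16.2 tags per M in untreated cells, 22.3 after MM-401 and 19.1 after 4-OHT, with both treatments above untreated. The MM-401 ratio was 1.37 (1.18 to 1.60), short of 1.5-fold. The whole signal lay at the CpG-rich downstream start, 87.0 kb from the gene's lower end. The CpG-poor upstream start had no peak of any mark in any condition.

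**Figure D2:**
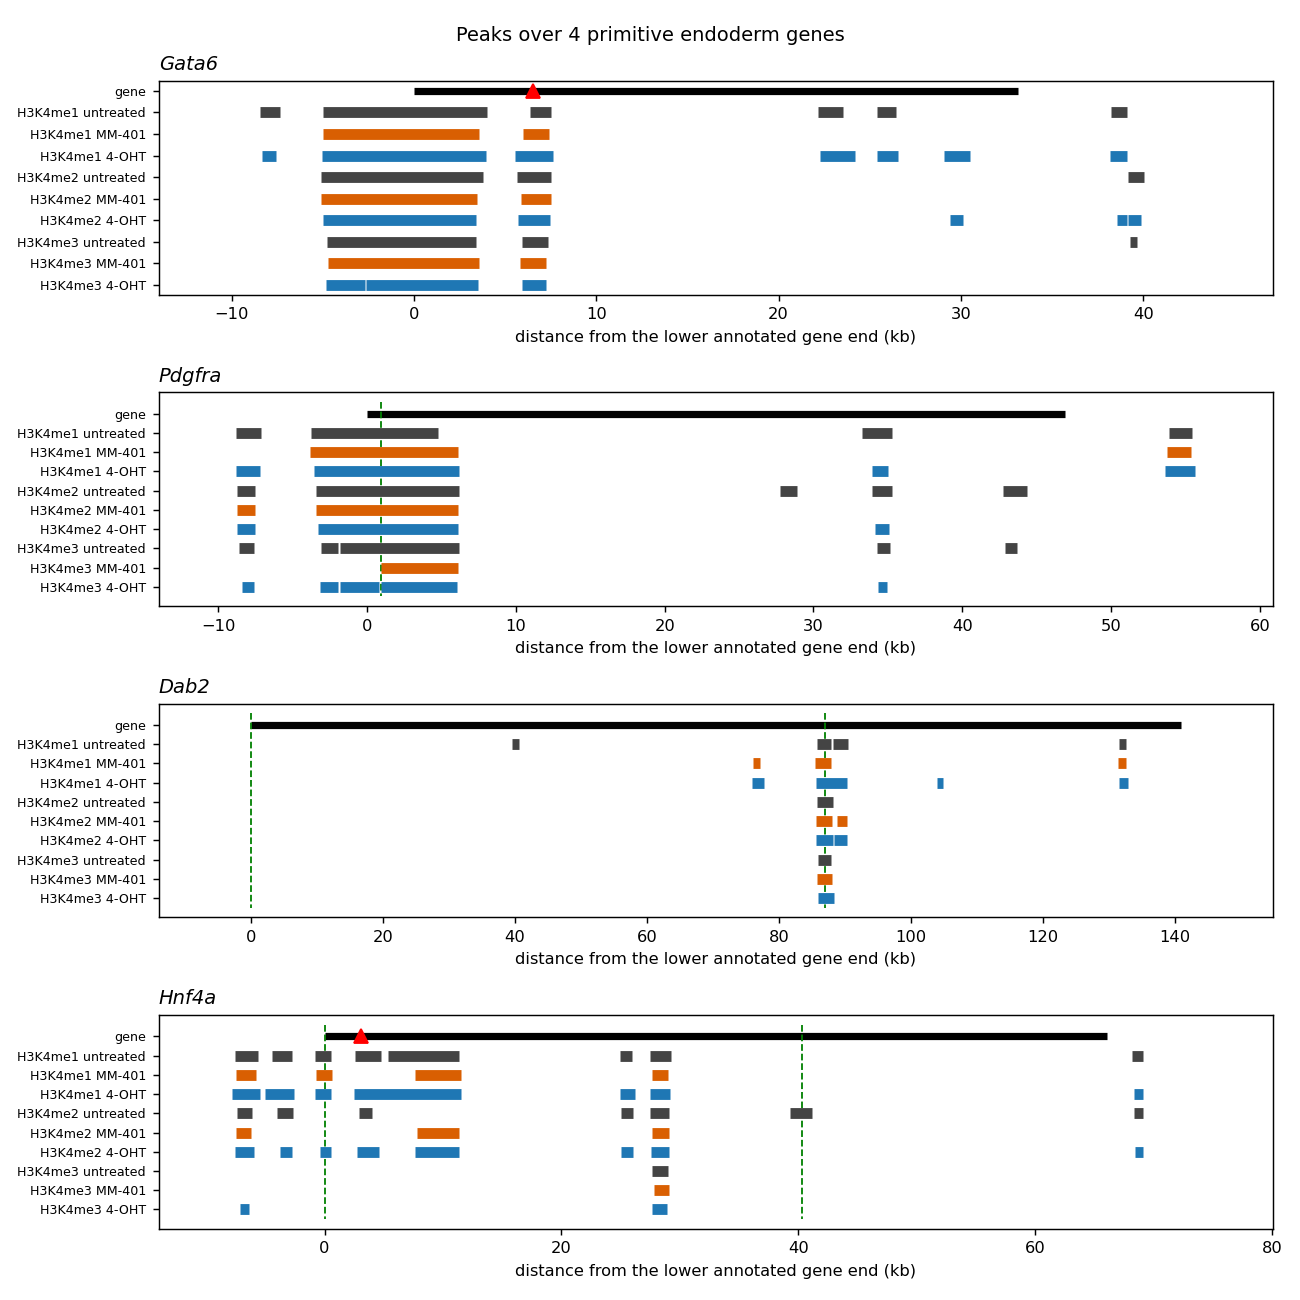
Peaks of each mark in the 3 conditions along Gata6, Pdgfra, Dab2 and Hnf4a, as distance in kb from the gene's lower end, with bars for peaks, green dashed lines for listed starts and a red triangle for an Mll1 peak. The Pdgfra domain is shorter and its outlying H3K4me3 peaks are missing in the MM-401 list, and the H3K4me3 of Dab2 lies at its downstream start only.

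Summed over the full gene windows, H3K4me1 after MM-401 stood close to the background. The members' median log2 ratio was -0.11, against -0.12 over 17325 genes, with 6 of 10 lower, against 64.3% of all genes. Hnf4a and Afp were lower by 1.5-fold or more, which 14.3% of all genes were, and no member was higher by that much (2.51%). Hnf4a had 34.4 tags per M in untreated cells, 21.0 after MM-401 and 37.9 after 4-OHT, and Afp had 3.47, 1.98 and 2.17. For Hnf4a MM-401 alone was low, while for Afp both treatments were, each lacking a different weak peak. The Afp site from 9.5 to 10.6 kb read 1.38 in untreated cells, 1.98 after MM-401 and none after 4-OHT. The site from 16.2 to 17.9 kb read 2.09, none and 2.17. Sox7 at 24.1, 32.2 and 26.0 and Sox17 at 9.95, 13.1 and 11.1 were the members with the highest MM-401 ratios, 1.33 (1.21 to 1.47) and 1.32 (1.12 to 1.54). Lama1 at 69.6, 47.3 and 82.0 was lowest after MM-401 and highest after 4-OHT. The peaks assigned to the members were narrower after MM-401 in sum (median log2 width ratio -0.55, all genes -0.33). Per kb all 10 members were higher, with a median of 0.39 against 0.23 over all genes. Most genes were also higher per kb, as that median is positive, and their exact share was not counted.

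H3K4me2 after MM-401 had a median log2 ratio of 0.02 over the members and 0.07 over all genes. Dab2 was higher by 1.5-fold or more (1.76% of all genes), at 12.1 tags per M in untreated cells, 18.5 after MM-401 and 14.2 after 4-OHT. At the downstream start alone the values were 12.1, 16.1 and 12.2, and both treated lists also held a peak from 88.4 to 90.3 kb, with 2.47 and 2.00 tags per M. No member was lower by that much (4.15%). For Hnf4a, at 16.2 after MM-401 against 20.8, this rests on a site from 7.6 to 11.4 kb. That site held 6.36 tags per M after MM-401 and had no peak in the untreated list. Gata4 at 88.8, 105 and 81.9 and Sox17 at 43.1, 54.1 and 43.7 were highest after MM-401, with ratios of 1.19 (1.12 to 1.25) and 1.25 (1.16 to 1.35). For Gata6, H3K4me2 was 70.0, 76.3 and 66.9, so after MM-401 it stood above untreated for this mark and below it for H3K4me3.

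**Figure D3:**
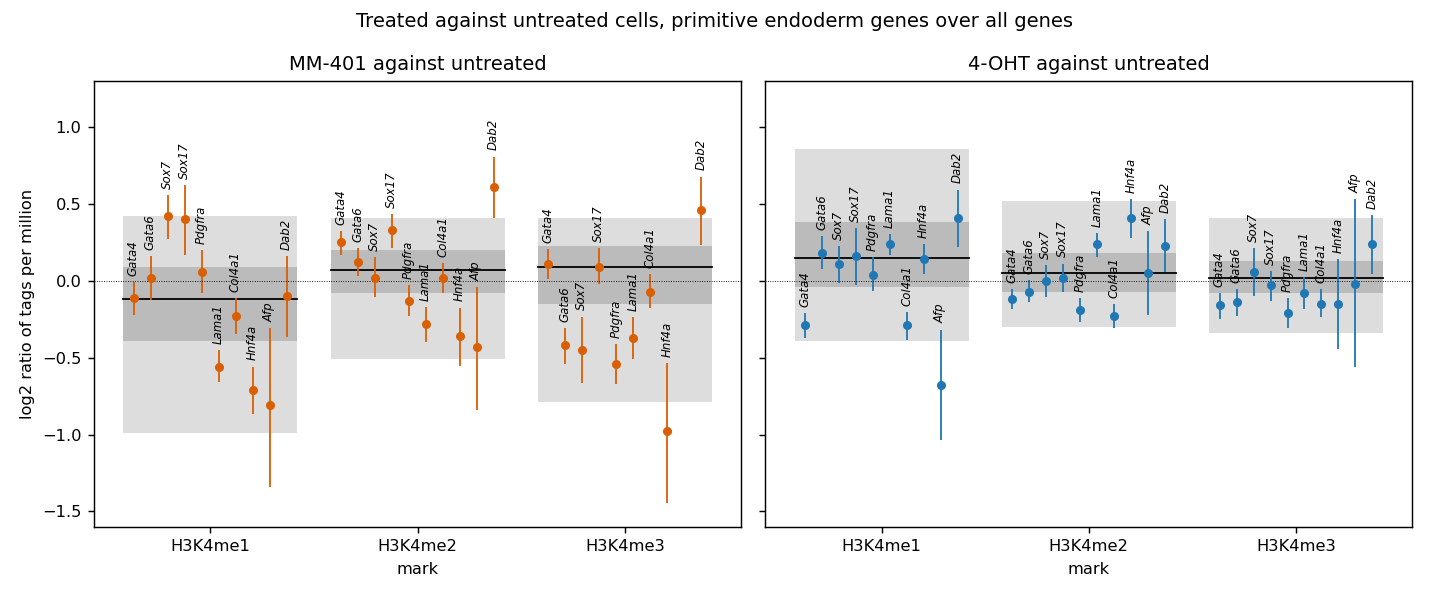
Log2 ratio of tags per M, treated over untreated, for each member, mark and treatment, with exact 95% intervals; grey bands hold the 5th to 95th and 25th to 75th percentiles of all genes and the line is their median. After MM-401 the H3K4me3 ratios of Hnf4a, Pdgfra, Sox7, Gata6 and Lama1 lie between -0.98 and -0.37, and after 4-OHT all H3K4me3 ratios lie between -0.21 and 0.24.

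The second comparison sets 4-OHT against untreated cells. It shares the untreated libraries with the first, so agreement between the 2 treatments is not independent. For H3K4me3 the median was -0.11 over the 10 members and 0.02 over 17435 genes, and 8 of 10 were lower against 44.8% of all genes. No member passed 1.5-fold in either direction, which 4.52% of all genes did. The lowest ratio was at Pdgfra, 0.864 (0.808 to 0.925), and the highest at Dab2, 1.18 (1.03 to 1.35). For H3K4me2 the median was 0.01, against 0.05 over all genes, and no member passed 1.5-fold (5.07% of all genes). Hnf4a was highest, at 27.6 tags per M against 20.8, a ratio of 1.33 (1.21 to 1.45). A site from 7.6 to 11.4 kb in Hnf4a held H3K4me2 of 6.36 after MM-401 and 7.37 after 4-OHT, while the untreated list had none there, although untreated H3K4me1 had a peak from 5.364 to 11.376 kb with 15.3 tags per M. This site is larger than the whole difference between the 4-OHT and untreated H3K4me2 of Hnf4a, so that ratio rests on it. That list in turn had H3K4me2 of 2.52 over the downstream start, which neither treated list had. For H3K4me1 the median was 0.12, against 0.15 over all genes, and Afp alone was lower by 1.5-fold or more (2.39% of all genes), with none higher by that much (12.5%). Within Lama1 the H3K4me1 site from 75.1 to 80.0 kb gave 2.28 in untreated cells, none after MM-401 and 8.10 after 4-OHT.

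Sites were compared one by one by merging overlapping peaks of the 3 conditions. H3K4me3 was listed at 29 member sites, of which 18 were present in all 3 conditions, against 27 of 55 for H3K4me2 and 34 of 74 for H3K4me1. The same shares over the sites of all genes were not counted, so this order is not a trait of the members. Of the untreated H3K4me3 peaks, 10 of 28 (35.7%) had no overlapping MM-401 peak, close to the 35.0% among peaks near any gene, and 2 of 28 (7.14%) had no overlapping 4-OHT peak (6.48% near any gene). For H3K4me2 the numbers were 18 of 45 after MM-401 (40.0%, against 31.5%) and 7 of 45 after 4-OHT (15.6%, against 5.20%). For H3K4me1 they were 34 of 71 (47.9%, against 31.8%) and 14 of 71 (19.7%, against 8.08%). The H3K4me3 peaks missing after MM-401 had an untreated median of 2.04 tags per M and at most 4.20, whereas those kept had a median of 16.7. Missing H3K4me1 peaks were weak as well, with untreated medians of 1.46 (MM-401, at most 5.64) and 1.21 (4-OHT), against 3.99 and 3.23 for those kept. For H3K4me2 the medians were 1.64 and 1.37, against 11.7 and 4.98. All 3 merged H3K4me3 sites over a listed start had a treated peak after both treatments, although at Pdgfra no treated peak lay over the start itself. Of the other sites, 5 of 6 within 1 kb of a gene end were kept after MM-401. In the flanks 2 of 6 were kept, and in gene bodies 8 of 13. The shares by place over all genes were not counted. With 51.2% of the untreated depth in the MM-401 H3K4me3 library, the part of depth in these missing peaks was not tested.

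**Figure D4:**
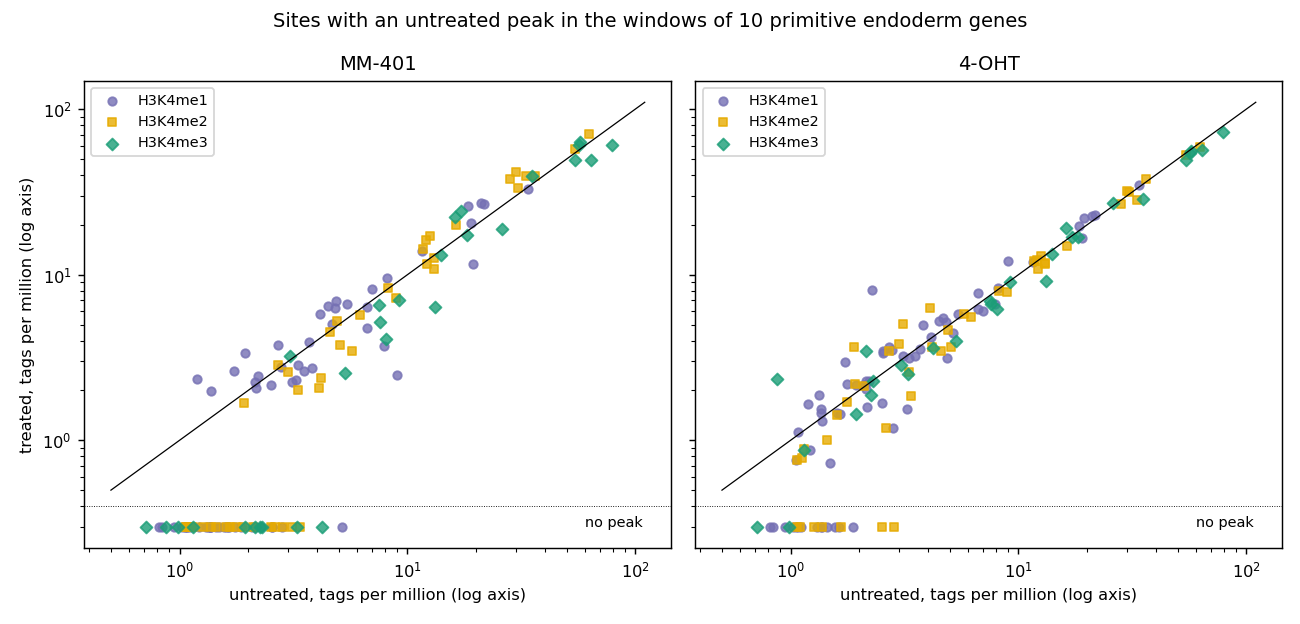
Tags per M at each member site in untreated cells against the treated cells, by mark (log axes); the diagonal marks equal values and sites with no treated peak are drawn below the dotted line. The sites without an H3K4me3 peak after MM-401 all have 4.20 or fewer tags per M in untreated cells.

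Mll1 itself, the methyltransferase targeted by both treatments, had a peak at 2 of the 10 genes, Gata6 and Hnf4a, against 15.8% of all protein-coding genes (3455 genes). The Gata6 peak at chr18:11059032-11059199 held 11 tags, or 0.365 tags per M (0.182 to 0.653), with an authors' false discovery rate of 1.68%. It lay under the second H3K4me3 site described above, which read 5.34 tags per M in untreated cells, 2.55 after MM-401 and 3.98 after 4-OHT. Sites of the other marks overlapped it too, at 1.74, 2.61 and 2.98 for H3K4me1 and at 6.19, 5.75 and 5.52 for H3K4me2. The Hnf4a peak at chr2:163509879-163510091 held 15 tags, or 0.498 tags per M (0.279 to 0.821), with a rate of 2.95%. It lay within H3K4me1 and H3K4me2 peaks and outside H3K4me3. The H3K4me2 site there read 1.90 tags per M in untreated cells, none after MM-401 and 3.64 after 4-OHT. Only 0.285% of the Mll1 tags lay in its 4004 peaks, so the absence of a listed peak at the other 8 genes is not a measured absence of Mll1.

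Other genes of the lineage and of the signal that sets it were counted for comparison. Of 22 further primitive endoderm genes, 21 had an H3K4me3 peak in both the untreated and the MM-401 list. Of these, 13 were lower after MM-401, against 39.0% of all genes, and 8 were higher. Their median was -0.11 against 0.09 over all genes, and 1 further gene had no peak left (4.32% of all genes with an untreated peak). Lower by 1.5-fold or more were 2 of the 21, near the 7.93% of all genes. One of them was Apoa1, an apolipoprotein secreted by the visceral endoderm, at 19.3 tags per M in untreated cells and 12.7 after MM-401. After 4-OHT it stood at 16.5, and the median of the list was 0.03, with no gene past 1.5-fold. H3K4me1 of this list after MM-401 was near the background, with a median of -0.15 against -0.12 over all genes and 3 of 22 genes lower by 1.5-fold or more, against 14.3% of all genes. Among them was Nid1, the basement membrane linker nidogen 1, at 38.3 tags per M in untreated cells, 15.8 after MM-401 and 34.8 after 4-OHT. Of 13 genes of the FGF pathway, 11 had higher H3K4me3 after MM-401 and 10 after 4-OHT, with a median of 0.32 in both, against all-gene medians of 0.09 and 0.02. The other 2 and 3 were lower, as were 39.0% and 44.8% of all genes. Fgfr2, a receptor for the FGF4 signal, had 49.5, 76.0 and 58.6 tags per M of H3K4me3. Etv5, a transcription factor induced by this pathway, had 111, 157 and 216, and Etv4, its relative, had 75.0, 77.7 and 140. Both are among the 3 FGF genes higher by 1.5-fold or more after 4-OHT (2.73% of all genes).

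The genes whose 9 levels of the 3 marks lay nearest to a member's, by the Euclidean distance of log2 tags per M over the 9 libraries, were listed for 3 of the transcription factors. Nearest to Gata4 were Grin2c (0.282), Il12rb1 (0.315) and H1f0 (0.335). Nearest to Gata6 were Fes (0.283), Shh (0.313) and Igfbp5 (0.345), and Shh had H3K4me3 of 74.0, 66.8 and 69.4 tags per M. Nearest to Sox17 were Rassf10 (0.436), Zfp112 (0.541) and Nrp1 (0.545).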

How the data were processed

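The authors deposited 1 peak list per immunoprecipitated library, with peak width, tag count, score (-10 log10 p), fold enrichment as a ratio, and false discovery rate as a percent, per the file headers, which name MACS 1.4.2 and a p cutoff of 1e-05. The submitters' processing notes name Bowtie2, SAMtools 1.5, MACS2 and mm10. Each list used the input of its own condition as control. Filtered tags (duplicates removed by MACS, per the file headers) were taken as library size. From these, peaks were assigned to RefSeq GRCm38.p6 genes within 10 kb, their deposited tag counts summed and divided by filtered tags in M (1000000). A peak spanning an edge counted whole. Ratios used genes with a peak in both libraries, with 1.5-fold as the size named. Python 3.11.15, pandas 2.3.3 and scipy 1.17.1 were used, and the scripts were tested on simulated data. The named genes are all 10 members, for the further lists those with the 2 highest or 2 lowest ratios, and the 3 nearest genes of Gata4, Gata6 and Sox17. The members and lists were chosen with earlier results of these data known. Some genes of these lists are not reported here.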

Additional observations from a re-analysis of the deposited data

How the results depend on the processing

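The H3K4me3 median after MM-401 (-0.37) ranged from -0.42 to -0.26 over 6 other choices of peaks and scaling, was -0.46 when centred on all genes and turned to 0.11 per kb of peak. The H3K4me1 median after MM-401 (-0.11, all genes -0.12) became 0.37 with only peaks within 1 kb of a gene end (7 genes, all genes -0.0). It became 0.16 with lists of equal peak number (all genes 0.01) and 0.39 per kb (all genes 0.23). The members thus stood above the background in these settings. The H3K4me1 median after 4-OHT (0.12, all genes 0.15) became -0.03 when centred on all genes and -0.05 per kb (all genes -0.12). The H3K4me2 median after MM-401 (0.02, all genes 0.07) became 0.31 per kb, close to the 0.28 of all genes. Centring and the per-kb value were added after seeing the data, and the cause of these shifts was not tested. The number of members past 1.5-fold went from 1 to 2 for H3K4me1 after 4-OHT (without peaks near another gene, or with a score of at least 100), and its 1 lower gene gave way to 1 higher gene with peaks within 1 kb of an end. For H3K4me1 after MM-401 the 2 lower genes became 1 lower and 1 higher (1 kb). Without peaks near another gene they became 3 lower, with Col4a1 (-0.98) added. In that setting Col4a1 (also -0.83 after 4-OHT) compares unlike stretches. An untreated peak of 10.9 tags per M beside its promoter was kept, while the treated peaks spanning that stretch were left out whole. The full site from 108.2 to 116.6 kb held 19.0, 20.5 and 16.6 in untreated, MM-401 and 4-OHT cells. The number of members past 1.5-fold went from 1 to 0 for H3K4me2 after MM-401 (1 kb). For H3K4me3 after MM-401 it went from 1 to 0 (1 kb) or 2 (without peaks near another gene, or per M tags in peaks). No paired analysis was possible because each group had 1 library. Sites under about 2 tags per M rest on few tags, and their absence from the MM-401 lists cannot be told apart from lower depth.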
